A study of Mus musculus with 4 samples.

Results

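Chaperones and disulfide isomerases of the endoplasmic reticulum (ER) were followed by ribosome profiling (Ribo-seq) of primary mouse myoblasts, the dividing muscle precursor cells that satellite cells give rise to in culture. The 10 genes, Hspa5, Hsp90b1, Hyou1, Sdf2l1, Calr, Canx, Pdia3, Pdia4, Pdia6 and P4hb, were chosen by name from the 55573 genes of the deposited table, and each name matched 1 gene. All 10 were among the 11363 genes tested, which had a mean level of at least 1 RPKM, the footprint reads per kilobase of a gene divided by a library size that the authors set. Ribo-seq sequences the mRNA stretches that ribosomes shield from nuclease, so a level reports ribosomes on an mRNA and cannot separate the amount of mRNA from the rate at which it is read. Matched mRNA levels were not analysed here.

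There were 2 libraries of genotype WT and 2 of genotype eIF5A knockout (KO), all from primary myoblasts in proliferation, labelled Day 2 and cultured with FGF. By the study's methods the cells came from 3-week-old mice, the KO mice carried floxed eIF5A deleted by tamoxifen through Pax7-CreERT2, and the WT mice were littermates. Deletion is therefore limited to cells in which Pax7 drove the recombinase. Whether a library held 1 animal or a pool was not given in the sources used here, so p-values measure the spread between these libraries, which may be technical.

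The libraries held 642429 to 704006 gene-assigned reads, and protein-coding genes took 33.9% to 41.5% in WT and 59.2% to 65.4% in the libraries labelled KO. Eif5a, the targeted gene, had 50 reads in WT 1, 73 in WT 2, 130 in the library labelled KO 1 and 114 in the library labelled KO 2. The log2 difference between the groups was 0.32 ± 0.48 (SE, adjusted p = 0.839, limma), so the level of the target did not separate the groups, and directions are given between libraries by their labels. The myoblast label was checked on 10 markers. Myod1 had 82 to 157 reads in every library, Pax7 had 30 and 10 reads in WT but 5 and 7 where labelled KO, and Myf5 had 8, 4, 2 and 0. Fibroblast markers were present beside them at a summed 650 to 1337 RPKM, against 124 to 268 RPKM for the myoblast markers.

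Secreted and membrane proteins enter the ER as they are made, and there they are folded, glycosylated and cross-linked by disulfide bonds. BiP, the product of Hspa5, binds exposed hydrophobic stretches of new chains, calreticulin and calnexin hold chains by their sugars, and the protein disulfide isomerases form and rearrange disulfide bonds. When unfolded chains build up, the sensors IRE1, PERK and ATF6 start the unfolded protein response (UPR), which raises transcription of these chaperone genes.

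Many chaperone promoters hold the ER stress element, which is CCAAT, a spacer of 9 bases and CCACG. NF-Y binds its CCAAT part and ATF6 its CCACG part. The promoter windows of RefSeq (GRCm38.p6) run from 250 bases before the start site to 50 bases after it, and 9 of the 10 genes had a window. The exact element was found on either strand in 5 of these 9, in Hspa5, Hsp90b1, Calr, Canx and Pdia6, and in 0.119% of all 32851 windows. With at most 1 mismatch in its 10 fixed letters it was found in 7 of 9, adding Pdia3 and Pdia4, against 494 (1.5%) of all windows. The CCAAT part alone was in 9 of 9 and the CCACG part in 8 of 9, against 37.4% and 32.8% of all windows, so these short parts are common everywhere. None of the 9 held the ER stress element II (ATTGG, any base, CCACG), TGACGTGG, to which XBP1 binds, or TGATGCAAT, an element of amino acid starvation. These were in 0.0365%, 0.676% and 0.192% of all windows. Among other ER genes described further on, the exact element was found in 4 of 78 with a window (Creld2, Dnajc3, Derl3 and Syvn1), and among 14 cytosolic heat shock genes in 0. Matches describe letters only and say nothing about binding in these cells.

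The elements are printed below because they are the feature that most of these genes share outside their function. Each is read 5′ to 3′ on the strand where CCAAT comes first, with 5 flanking bases on each side. Capitals mark the fixed letters that match, and a lower-case base inside CCAAT or CCACG is the mismatch.
Hspa5, chr2:34772020-34772048, plus strand: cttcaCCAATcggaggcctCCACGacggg
Hsp90b1, far element, chr10:86705633-86705661, minus strand: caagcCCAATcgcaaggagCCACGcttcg
Hsp90b1, middle element with a mismatch, chr10:86705593-86705621, plus strand: gcccgCCAATcggaactgtCCAgGtgcgg
Hsp90b1, near element, chr10:86705528-86705556, plus strand: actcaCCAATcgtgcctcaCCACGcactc
Calr, chr8:84847070-84847098, plus strand: atgggCCAATgagggtcgaCCACGcgttg
Canx, chr11:50325795-50325823, minus strand: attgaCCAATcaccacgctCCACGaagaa
Pdia6, chr12:17266486-17266514, plus strand: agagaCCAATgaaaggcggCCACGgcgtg
Pdia3, chr2:121413868-121413896, plus strand: cgcagCCAATcggcggctgCCACactgcg
Pdia4, chr6:47813597-47813625, plus strand: gaccaCCAATcacgggctgCCACtcggtt

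The element of Hspa5 spanned positions -65 to -47 from the RefSeq start site, and the nearest bases of the exact elements in the other genes lay between -80 and -194. The Ensembl model used in the table starts Hspa5 further upstream, at 34771970, so by that model this element lies inside the gene, and the same holds for the printed match of Pdia3, whose model starts at 121413775. Hsp90b1 was the single gene with more than 1 element, 2 exact and 1 with a mismatch. P4hb and Sdf2l1 held CCAAT and CCACG but not at this spacing.

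**Figure D1:**
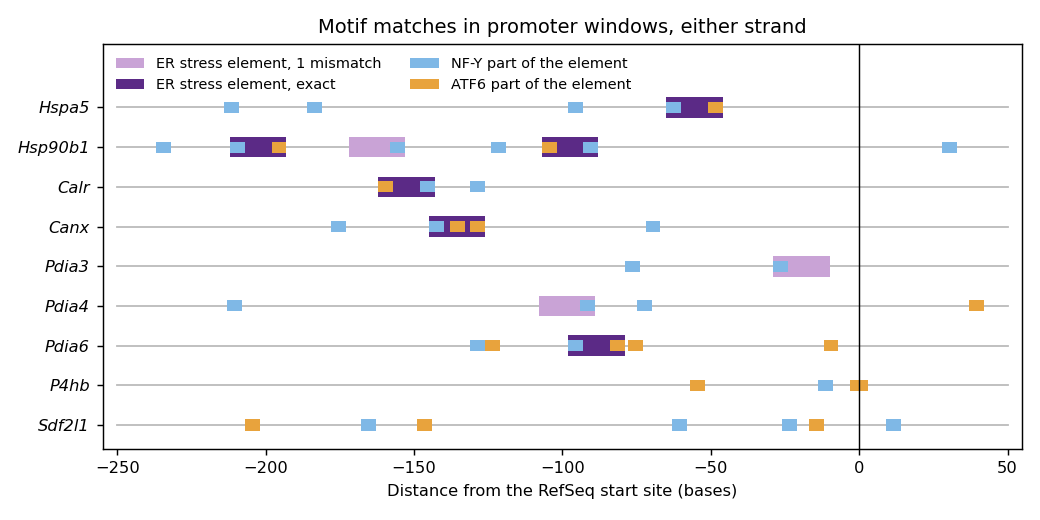
Matches to the ER stress element and its parts in the promoter windows of 9 ER chaperone genes, drawn by distance from the RefSeq start site in bases (x axis), 1 gene per line. Exact elements (dark purple) are in 5 genes and elements with 1 mismatch (light purple) in 3, among them Hsp90b1, while P4hb and Sdf2l1 hold only scattered parts (blue for the CCAAT part, orange for the CCACG part).

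Across the 4 libraries, 9 of the 10 genes had their highest footprint level in the library labelled KO 1. Among the other 3 libraries the widest gaps for these 9 genes were in Hsp90b1, between the WT libraries, and in Pdia3, where the library labelled KO 2 was above WT. Of all genes tested, 24.3% had their highest level in that library. In 6 of the 10, Hspa5, Hsp90b1, Calr, Canx, Pdia4 and Pdia6, it was at least 2-fold above each of the other 3 libraries on the log2(RPKM + 1) scale, against 2.22% of all genes tested. The median log2 level over the WT mean was 1.32 in the library labelled KO 1 and 0.12 in the library labelled KO 2. Over the 928 genes with at least 300 reads these medians were 0.34 and 0.17. Sdf2l1 was the exception among the 10, lower in both libraries labelled KO than in WT.

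**Figure D2:**
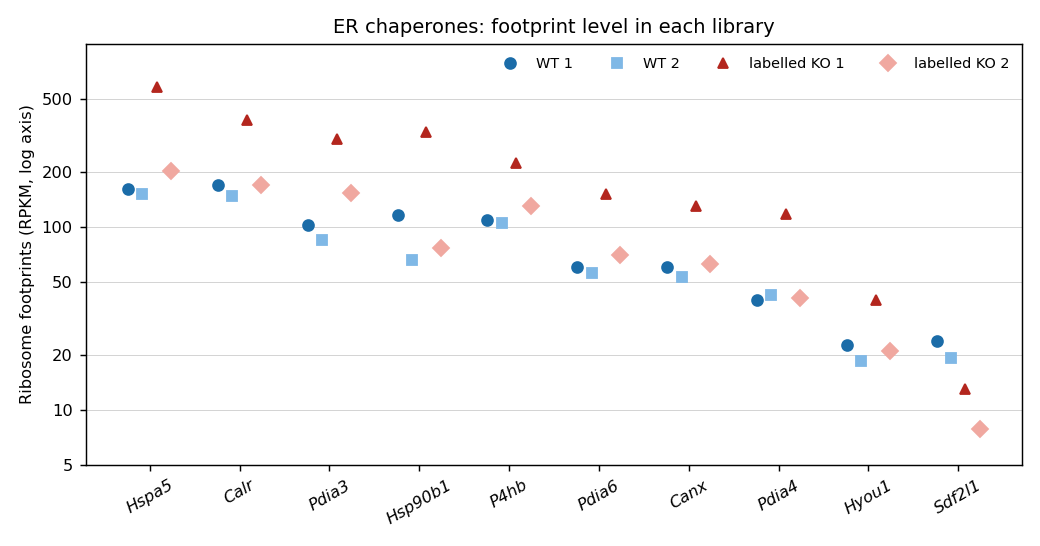
Footprint level in RPKM (log axis) of the 10 ER chaperone genes in each of the 4 libraries, ordered by mean level. The library labelled KO 1 (dark triangles) is highest for 9 genes, at 40.1 to 585 RPKM, the other 3 libraries lie below it with the library labelled KO 2 above both WT libraries for Hspa5, Canx, Pdia3, Pdia6 and P4hb, and for Sdf2l1 both WT libraries are on top.

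The groups were compared with limma on log2(RPKM + 1), fitted over all 11363 genes with p-values adjusted by the Benjamini-Hochberg method. No member passed an adjusted p-value of 0.05, where 0.106% of all genes did, and their adjusted p-values ran from 0.675 to 0.738 (0.290 to 1 over 18 alternatives). None had an unadjusted p-value under 0.05 either (2 did with limma's voom on the recovered reads), against 2.86% of all genes on the higher side and 4.46% on the lower side. The log2 difference was above 0 for 9 members and below 0 for 1, with 50.0% of all genes above 0. Its median over the 10 was 0.71, beside 0.00026 over all genes tested and 0.26 over the 928 genes with at least 300 reads. Both libraries labelled KO lay above both WT libraries for 5 members (Hspa5, Canx, Pdia3, Pdia6 and P4hb), against 20.1% of all genes, and below them for Sdf2l1, against 20.3%. Scaled to total reads in place of the authors' library size, the median of all genes was 0.50, and these counts were 8 and 0, against 41.8% and 7.55% of all genes on that scale. Without the library labelled KO 1 the median log2 difference of the 10 was 0.12, and without the library labelled KO 2 it was 1.32. A permutation of 2 against 2 libraries cannot give an exact p-value under 0.333.

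BiP is the central HSP70 chaperone of the ER lumen. Hspa5 (ENSMUSG00000026864, chromosome 2, 34771970 to 34777547, plus strand, GRCm38) had 409 and 302 reads in WT 1 and 2, 2244 in the library labelled KO 1 and 694 in the library labelled KO 2. Its level was 160 and 152 RPKM in WT, 585 RPKM in the library labelled KO 1 and 203 RPKM in the library labelled KO 2. Both libraries labelled KO were above WT, the first 3.75-fold and the second 1.30-fold over the WT mean, so they differed more from each other than the second did from WT. The group means were 156 ± 6.26 and 394 ± 270 RPKM (SD, n = 2). In limma this gave a log2 difference of 1.14 ± 0.65 (SE, 95% confidence limits -0.47 and 2.75, adjusted p = 0.697).

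GRP94, the HSP90 chaperone of the ER, is encoded by Hsp90b1 (ENSMUSG00000020048, chromosome 10, 86690209 to 86705509, minus strand). WT 1 and 2 held 284 and 126 of its reads, at 117 and 66.3 RPKM. The library labelled KO 1 held 1208, at 330 RPKM, and the library labelled KO 2 held 250, at 76.8 RPKM. The value labelled KO 2 lay between the WT values, so the groups overlapped. Hsp90b1 had the widest gap between the libraries labelled KO of the 10 genes, 4.30-fold with a 95% counting interval from 3.75 to 4.95. It was also the single member whose WT libraries differed beyond counting error, as 22.2% of all genes and 61.7% of those with at least 300 reads did, by 1.76-fold (1.42 to 2.19), again with replicate 1 above replicate 2. Its log2 difference was 0.85 ± 0.79 (SE), and -0.20 without the library labelled KO 1.

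Hyou1 (GRP170), which helps BiP exchange its nucleotide, is at chromosome 9, 44379490 to 44392369, plus strand (ENSMUSG00000032115). Its levels were 22.7, 18.5, 40.1 and 21.1 RPKM, in the order WT 1, WT 2, labelled KO 1 and labelled KO 2, on 99, 63, 263 and 123 reads. The library labelled KO 1 stood 1.95-fold over the WT mean, the smallest excess of the 9 genes, and the library labelled KO 2 lay within the WT range. Its log2 difference was 0.49 ± 0.47 (SE).

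Sdf2l1, a small ER protein that acts with BiP and the co-chaperone Dnajb11, went the other way. It is encoded at chromosome 16, 17130138 to 17132383, minus strand (ENSMUSG00000022769), and was the least read member, with 16 reads in WT 1, 10 in WT 2, 13 in the library labelled KO 1 and 7 in the library labelled KO 2. Its levels were 24.0 and 19.2 RPKM in WT and 12.9 and 7.82 RPKM in the libraries labelled KO, so the groups did not overlap. In limma this gave a log2 difference of -1.02 ± 0.43 (SE, 95% confidence limits -2.06 and 0.03, unadjusted p = 0.0552, adjusted p = 0.675). Scaled to total reads, the log2 difference of Sdf2l1 was -0.44 and its groups overlapped. By counting error alone, the library labelled KO 1 was not set apart from WT (ratio 0.592, 95% interval 0.279 to 1.19), and the library labelled KO 2 was below it (0.358, 0.131 to 0.847). These intervals cover counting error in those libraries only.

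The lectin chaperones calreticulin and calnexin bind glycoproteins that carry a single glucose, the first in the lumen and the second in the membrane. Calr (ENSMUSG00000003814, chromosome 8, 84841850 to 84846934, minus strand) was at 169 and 147 RPKM in WT, 384 RPKM in the library labelled KO 1 and 169 RPKM in the library labelled KO 2. Canx (ENSMUSG00000020368, chromosome 11, 50293961 to 50325673, minus strand) was at 60.1 and 53.4 RPKM in WT and at 130 and 62.5 RPKM in the libraries labelled KO 1 and 2. For both, the library labelled KO 1 stood apart, 2.43-fold and 2.29-fold over the WT mean, and the library labelled KO 2 was 1.07-fold and 1.10-fold over it. The log2 differences were 0.69 ± 0.59 and 0.66 ± 0.52 (SE).

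Pdia3 (ERp57), the isomerase that works with calreticulin and calnexin, had a log2 difference close to that of Hspa5. It is at chromosome 2, 121413775 to 121438687, plus strand (ENSMUSG00000027248), and its reads numbered 193 in WT 1, 126 in WT 2, 862 in the library labelled KO 1 and 390 in the library labelled KO 2. Levels were 102 and 85.2 RPKM in WT and 303 and 154 RPKM in the libraries labelled KO. Pdia3 was the member in which the library labelled KO 2 was furthest above WT, 1.64-fold over the mean. In limma this gave a log2 difference of 1.20 ± 0.54 (SE, 95% confidence limits -0.12 and 2.53, unadjusted p = 0.0682, adjusted p = 0.676). It was 0.72 without the library labelled KO 1.

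P4hb, the classical protein disulfide isomerase and also the beta subunit of collagen prolyl 4-hydroxylase, is at chromosome 11, 120560298 to 120573253, minus strand (ENSMUSG00000025130). Its levels were 110 and 105 RPKM in WT and 224 and 130 RPKM in the libraries labelled KO. The WT libraries differed by 1.05-fold, and the libraries labelled KO, both above WT, by 1.73-fold. This gave a log2 difference of 0.67 ± 0.50 (SE).

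Pdia6 and Pdia4 (ERp72) are further lumenal isomerases. Pdia6 (ENSMUSG00000020571, chromosome 12, 17266545 to 17284770, plus strand) was at 60.7 and 56.1 RPKM in WT and 152 and 70.4 RPKM in the libraries labelled KO, both above WT. Pdia4 (ENSMUSG00000025823, chromosome 6, 47796141 to 47813430, minus strand) was at 40.1 and 42.5 RPKM in WT, 118 RPKM in the library labelled KO 1 and 40.8 RPKM in the library labelled KO 2, which lay inside the WT range. The log2 differences were 0.82 ± 0.53 and 0.74 ± 0.60 (SE), and that of Pdia4 was -0.02 without the library labelled KO 1.

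The gap between the libraries labelled KO was larger than counting error for 9 members, whose 95% interval of the ratio lay above 1, as it did for 9.44% of all genes tested and 32.9% of the 928 genes with at least 300 reads. Against the WT libraries together, the counting interval of the library labelled KO 1 lay above 1 for the same 9 genes, and for 15.1% of all genes and 49.1% of the well-read ones. That of the library labelled KO 2 lay above 1 for Hspa5, Pdia3 and P4hb and below 1 for Hsp90b1 and Sdf2l1. These 3 and 2 of 10 stand beside 12.4% and 13.8% of all genes, or 39.0% and 26.9% of the well-read ones, so they do not set the members apart. Over the 10 genes the median log2 gap between the libraries labelled KO was 1.07, while over all genes tested it was -0.0062, with 5% and 95% points at -1.35 and 1.29. Over the 928 well-read genes it was 0.071, and 40.9% of them had their highest level in the library labelled KO 1. After a spline on the GC content and length of the coding sequence was subtracted from each library, the median gap of the 10 was 1.05 and 9 of them were still highest in that library.

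As a share of protein-coding reads, which does not depend on the scaling of the deposited values, the 10 genes took 0.687% (95% Wilson interval 0.656% to 0.719%) in WT 1 and 0.567% (0.536% to 0.599%) in WT 2. They took 1.63% (1.59% to 1.67%) in the library labelled KO 1 and 0.697% (0.671% to 0.724%) in the library labelled KO 2. The library labelled KO 1 thus gave 2.60 times the WT mean, and the interval of the library labelled KO 2 overlapped that of WT 1. As a share of all gene-assigned reads the values lay further apart, at 0.285% and 0.192% in WT, 1.07% in the library labelled KO 1 and 0.413% in the library labelled KO 2, which were 4.47 and 1.73 times the WT mean. The group means of the share of protein-coding reads were 0.627% ± 0.0849 and 1.16% ± 0.660 (SD, n = 2), with a two-sided exact permutation p of 0.333, the lowest that 2 against 2 libraries allow.

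**Figure D3:**
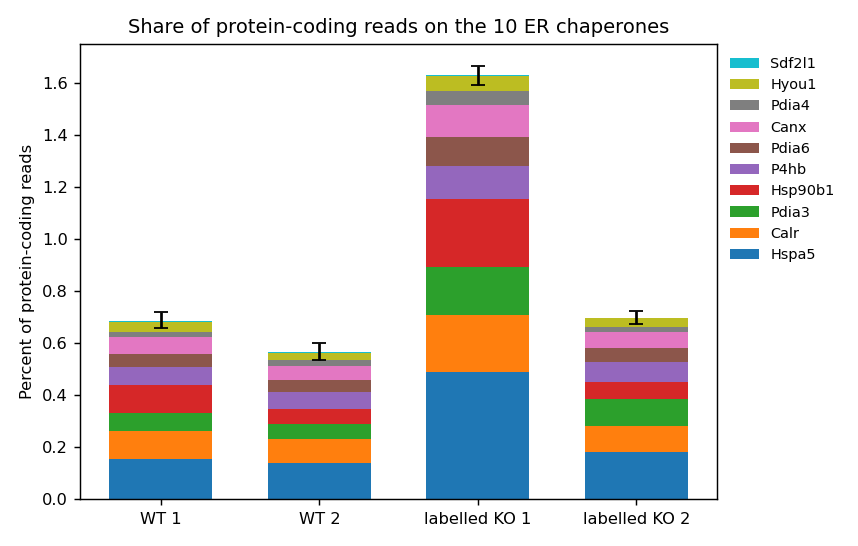
Percent of each library's protein-coding reads that fell on the 10 ER chaperone genes, stacked by gene, with the 95% Wilson interval of the total as error bar. The library labelled KO 1 reaches 1.63%, and the other 3 lie between 0.567% and 0.697%.

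Hspa5 took the largest part of the members' reads in each library, 22.1% in WT 1, 24.5% in WT 2, 29.9% in the library labelled KO 1 and 25.8% in the library labelled KO 2. The 95% Wilson interval of the library labelled KO 1, 28.9% to 31.0%, lay above those of the other 3, of which the highest ended at 27.5%. Hsp90b1 took 15.4% and 16.1% in the replicates numbered 1 and 10.2% and 9.31% in those numbered 2, so its part went with the replicate number and not with the label. Sdf2l1 took 0.866% and 0.811% in WT, against 0.173% and 0.261% in the libraries labelled KO. P4hb took 7.76% in the library labelled KO 1 and between 10.2% and 11.4% in the other 3.

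In WT the order of the mean levels per kilobase of gene was Calr (158 ± 15.1 RPKM, SD, n = 2), Hspa5 (156 ± 6.26), P4hb (107 ± 3.52), Pdia3 (93.6 ± 11.9), Hsp90b1 (91.6 ± 35.7), Pdia6 (58.4 ± 3.23), Canx (56.7 ± 4.75), Pdia4 (41.3 ± 1.67), Sdf2l1 (21.6 ± 3.39) and Hyou1 (20.6 ± 2.98). The WT values of Calr and Hspa5 overlapped, as did those of Pdia6 and Canx, those of Sdf2l1 and Hyou1, and those of Hsp90b1 with both Pdia3 and P4hb. The gene length in the table is the union of all exons, untranslated parts included, so genes with long untranslated parts are understated. Per kilobase of the longest coding sequence, the WT means were highest for Calr (365) and Hspa5 (336), then P4hb (201), Pdia3 (194), Pdia6 (164), Hsp90b1 (153) and Canx (150), and lowest for Pdia4 (51.5), Hyou1 (49.7) and Sdf2l1 (36.0). In the library labelled KO 1, Hspa5 was highest on both scales, at 585 RPKM and at 1259 per coding kilobase, against 384 RPKM and 887 for Calr.

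Other genes of ER folding and the UPR were read from 7 lists of 99 genes, of which 94 were tested. None passed the adjusted threshold. The median log2 difference of the 94 was 0.47, with 68 above and 26 below 0, where 50.0% of all genes tested were above 0. This median was 0.25 without WT 1 and 0.33 without the library labelled KO 1. Unadjusted p-values under 0.05 were found for 6 on the higher side (Erp44, Fkbp7, Fkbp11, Sec61a2, Sec61g and Ssr2) and for 0 on the lower side, against 2.86% and 4.46% of all genes tested. In WT 1 and 2, Sec61g had 1 and 2 reads, Fkbp7 2 and 2, and Fkbp11 2 and 4, around the detection floor of 3 reads. The median log2 levels of the 94 over the WT mean were 0.53 in the library labelled KO 1 and 0.33 in the library labelled KO 2. The difference between these lists and the 10 chaperones was not tested.

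Among genes of these lists with at least 40 reads, the highest log2 differences were those of Dnajb11, Erp44, Ssr2 and Ppib. Dnajb11, a co-chaperone of BiP, was at 12.8, 3.28, 34.4 and 15.7 RPKM in the order WT 1, WT 2, labelled KO 1 and labelled KO 2 (log2 difference 1.66 ± 0.69, SE). Erp44, which retains unfinished disulfide-linked proteins in the early secretory pathway, was at 7.76 and 9.31 RPKM in WT and 26.8 and 28.6 RPKM in the libraries labelled KO (1.59 ± 0.38, unadjusted p-value of 0.00585 and adjusted p-value of 0.567 in limma). For Erp44 the libraries labelled KO were close to each other. Ssr2, a subunit of the translocon-associated complex, was at 8.90 and 26.2 RPKM in WT and 38.4 and 49.8 RPKM in the libraries labelled KO (1.45 ± 0.58). Ppib, the ER cyclophilin that isomerises prolines in collagen, was at 5.02, 18.6, 29.4 and 19.9 RPKM (1.21 ± 0.64).

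The lowest with at least 40 reads were Atf6b, a relative of ATF6, with a log2 difference of -0.72 ± 0.39, the thioredoxin-domain gene Txndc11 (-0.66 ± 0.48), Edem2, which trims mannose from glycoproteins bound for degradation (-0.64 ± 0.37), and Herpud2 (-0.58 ± 0.44). Of the UPR sensors, Ern1 (IRE1) was at 4.87 and 4.67 RPKM in WT and 4.59 and 3.03 RPKM in the libraries labelled KO, Eif2ak3 (PERK) at 4.40 and 3.87 against 3.84 and 2.88 RPKM, and Atf6 at 7.55 and 4.83 against 5.49 and 4.96 RPKM. In the library labelled KO 1 each of the 3 was below its WT mean. Their log2 differences were between -0.28 and -0.18, but between 0.21 and 0.33 when scaled to total reads. The transcription factor Xbp1 was at 28.1 and 46.4 RPKM in WT and 55.3 and 54.9 RPKM in the libraries labelled KO, a log2 difference of 0.60 ± 0.45. Atf4 differed by 0.27 ± 0.43 and Ddit3 (CHOP), on 2 to 7 reads per library, by 0.18 ± 0.45. The UPR targets Dnajb9 and Herpud1 differed by 1.08 ± 0.49, on 2 to 20 reads per library, and by 0.90 ± 0.38. Other genes of these lists went either way. Creld2 differed by 0.96 ± 0.43, Dnajc3 by 0.17 ± 0.36, Manf by -0.10 ± 0.61 and Edem1 by -0.38 ± 0.41, named here after their values were seen.

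By list, the translocon and KDEL receptors, which bring proteins into the ER and return chaperones to it, had a median log2 difference of 0.62, with 15 of 15 above 0, and 3 of the 6 genes named with an unadjusted p-value under 0.05 were among them. Their WT libraries lay far apart, with a summed level of 193 RPKM in WT 1 and 334 RPKM in WT 2. It was 438 and 392 RPKM in the libraries labelled KO 1 and 2. The prolyl isomerases with Serpinh1, the collagen chaperone, had a median of 0.59 with 9 of 9 above 0, and held 2 of those 6. HSP70 and HSP90 co-factors had a median of 0.50 (12 of 16 above 0), the other disulfide enzymes, with the last of the 6, 0.43 (11 of 14) and ER-associated degradation 0.42 (10 of 13). The glycan and lectin cycle had a median of -0.34 (5 of 11 above 0), and the UPR sensors and factors -0.23 (6 of 16 above 0). Scaled to total reads, these last medians turned to 0.22 and 0.26, both below the median of all genes on that scale. In these 7 lists the library labelled KO 1 was at least 2-fold above each other library for 1 co-factor, Dnajb11, and 1 degradation gene, the lectin Os9, at 34.8 RPKM against 12.9 to 15.8 RPKM. These 2 of 94 are near the 2.22% of all genes tested. Os9 is named here after its values were seen.

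**Figure D4:**
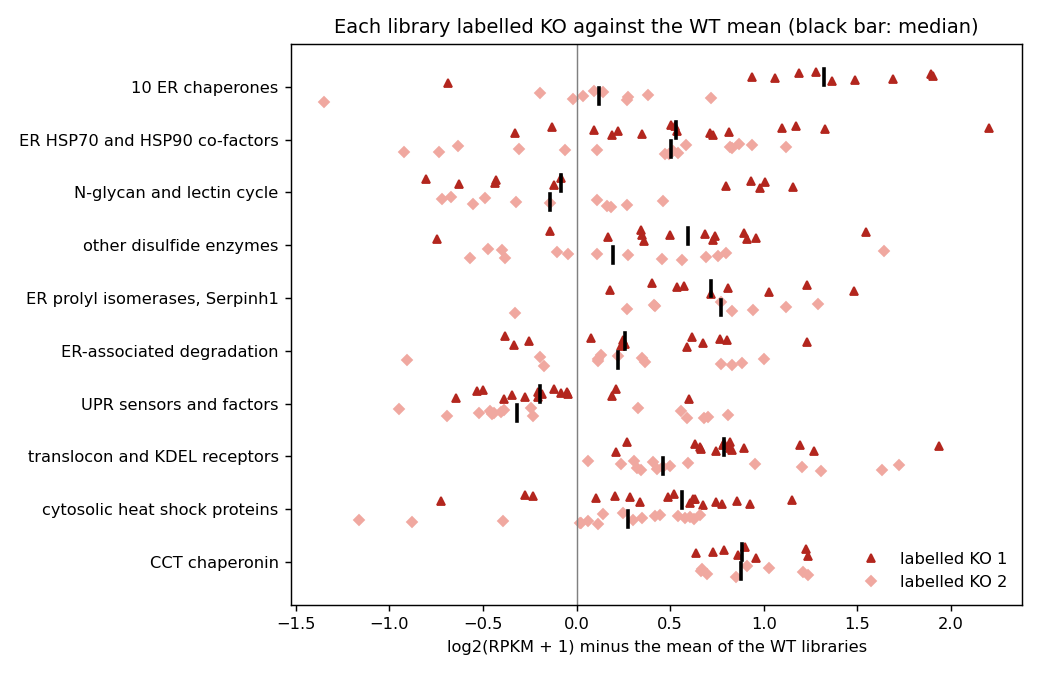
Level in each library labelled KO minus the mean of the WT libraries on the log2(RPKM + 1) scale (x axis), 1 point per tested gene, for the 10 ER chaperones, the 7 other ER lists and 2 lists of cytosolic chaperones, with medians as black bars. The medians of the 10 ER chaperones are 1.32 in the library labelled KO 1 and 0.12 in the library labelled KO 2, while those of the CCT chaperonin are 0.88 in both.

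The ER genes were set against the cytosolic heat shock proteins within each library, where any scaling cancels in a ratio of summed levels. The summed level of the 10 chaperones was 0.814 and 0.541 times that of 18 cytosolic heat shock proteins in WT 1 and 2, 1.38 times in the library labelled KO 1 and 0.610 times in the library labelled KO 2. The ratio labelled KO 2 lay between the WT ratios. The difference of the mean log2 ratios was 0.47, with an exact two-sided permutation p-value of 0.667, so no difference was shown between the groups. With the median log2(RPKM + 1) of each list in place of the sum, the ratios were 2.41 and 2.26 in WT, against 3.65 and 2.48 in the libraries labelled KO. These did not overlap (exact permutation p = 0.333, the lowest possible), but with the added 1 the scaling does not cancel in full. The CCT chaperonin, which folds actin and tubulin in the cytosol, showed another pattern. Its 8 subunits had a median log2 difference of 0.90, with 0.88 in either library labelled KO, and its summed level was 271 and 643 RPKM in WT and 788 and 813 RPKM in the libraries labelled KO. The WT libraries thus lay further apart from each other than the libraries labelled KO. The 6 mitochondrial chaperones had a median of 0.71, with 0.86 and 0.53 in the libraries labelled KO 1 and 2. Against the CCT chaperonin and the mitochondrial chaperones, the log2 ratio of the summed levels differed between the groups by -0.075 and 0.062 (exact p = 0.667 and 1).

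Of the marker lists for other cell types, the fibroblast list was highest in the library labelled KO 1, as the 10 chaperones were. Of 17 tested fibroblast markers, 13 were highest in the library labelled KO 1, against 24.3% of all genes tested and 40.9% of those with at least 300 reads. The level there was at least 2-fold above each other library for 3 (Pdgfra, Fbn1 and Mfap5), and none of the 18 listed was at 0 in all libraries. Their summed level was 805 and 650 RPKM in WT, 1337 RPKM in the library labelled KO 1 and 730 RPKM in the library labelled KO 2. Myoblast markers went the other way, at 268 and 213 RPKM in WT and 124 and 137 RPKM in the libraries labelled KO. In log2 difference 9 of 10 were below 0, where 50.0% of all genes tested were above 0. An unadjusted p-value under 0.05 in limma was found for 4 (Pax7, Myf5, Des and Chrna1), against 4.46% of all genes tested on the lower side. Endothelial markers were at 235 to 342 RPKM in WT and 354 to 416 RPKM in the libraries labelled KO, and immune markers at 49.7 to 76.5 and 51.4 to 66.8 RPKM, with C1qa and Itgam at 0. Mural markers were at 168 to 213 and 118 to 135 RPKM, with Tagln listed at 0. Des was counted in both the myoblast and the mural list, at 46.0 and 40.1 RPKM in WT and 13.8 and 21.4 RPKM in the libraries labelled KO. The share of protein-coding reads was also highest in the library labelled KO 1, at 65.4%. Mitochondrial rRNA genes took 39.1% and 30.1% of gene-assigned reads in WT, 15.0% in the library labelled KO 1 and 18.5% in the library labelled KO 2. The part of cell make-up and library quality in the levels of the chaperones was not tested, and in bulk libraries a change in the number of cells of a type and in the RNA per cell cannot be told apart.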

How the data were processed

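Ribo-seq values of 2 WT and 2 eIF5A knockout libraries were used. By the study's methods the authors removed rRNA and tRNA reads (mitochondrial rRNA genes still held 15.0% to 39.1% of the deposited reads), aligned single-end reads with TopHat2 (mouse, Ensembl 97 gene models, mm10) and counted genes with HTSeq. Versions, strand and the handling of reads with several matches were not given in the sources used here. The deposited values were RPKM. RPKM times gene length was divided by its smallest value above 0 in each library, which was taken to be a single read. This gave whole reads (within 0.01) for 100% of values in each library, and the RPKM denominators were 0.733 to 1.29 times the library totals. Depth was read from these reads. Intervals cover counting error only, without molecular identifiers, and 3 reads were taken as the floor of detection, which every member passed in every library.

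Levels were tested with limma 3.58.1 in R 4.3.3 (lmFit and eBayes with a trend, two-sided, Benjamini-Hochberg) on log2(RPKM + 1), for genes averaging at least 1 RPKM, and the model held group alone. Log2 differences are on this scale. The test was also run on simulated data. The changes planted there were larger than the differences of the members, so that run does not bear on them. Exact permutation tests, intervals and figures used scipy 1.17.1 and matplotlib 3.10.9 in Python 3.11.15. Coding length and GC content came from GENCODE vM21 (GRCm38), whose bounds and exon unions equalled those of the table for 10 of 10 members. Promoters came from RefSeq tables. Protein features were not analysed here.

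The members and lists were chosen with earlier results of these data known. Named from the other ER lists were 8 sensors and targets and the 4 highest and 4 lowest log2 differences among genes with at least 40 reads. The symbol Hm13 was matched as H13. Alternatives changed the pseudocount, filter, variance prior, scaling, model, GC trend, replicate block and libraries.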

Additional observations from a re-analysis of the deposited data

How the results depend on the processing

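None of the 10 chaperones passed an adjusted p-value of 0.05 under any of the 18 alternatives, the lowest being 0.290 in limma. With 2 libraries a group this says little about stability. Members with an unadjusted p-value under 0.05 numbered 0 as reported. They numbered 2 without a filter, with at least 40 reads (chosen after seeing the data) and among protein-coding genes alone (Pdia3 higher and Sdf2l1 lower in each), and 2 with voom on recovered reads (Hspa5 and Pdia3 higher). There was 1 under a filter of 5 RPKM, with a robust variance prior and on protein-coding reads (Sdf2l1 lower in each), and 1 with quantile normalization (Pdia3 higher). Scaling to total reads gave 4 (Hspa5, Pdia3, P4hb and Pdia6 higher), where 14.8% of all genes were higher at that threshold, the median of all genes moved to 0.50 and that of the 10 to 1.32. With a library left out the count ran from 0 to 4, the latter without the library labelled KO 2 (Hspa5, Pdia3, Pdia4 and Pdia6 higher). Of all genes, 4.94% to 11.1% passed in either direction under the settings other than total reads and left-out libraries, and 3.78% to 14.1% with a library left out. Such fits leave 1 library in a group, which is assumed to vary like the other group.

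The median log2 difference of the 10 was 0.55 after subtracting the trend on GC content and length (also with the replicate block, added after seeing the data), and ran from 0.12 (without the library labelled KO 1) to 1.32 (without the library labelled KO 2). Members without overlap ran from 6 to 10 with a library left out, against 62.1% to 75.4% of all genes, and members above 0 from 7 to 9. Hsp90b1 ran from -0.20 to 1.90 and Pdia4 from -0.017 to 1.49, both lowest without the library labelled KO 1. The share of protein-coding reads differed by 0.537 percentage points, from 0.0707 without the library labelled KO 1 to 1.00 without the library labelled KO 2. The log2 ratio to cytosolic heat shock proteins ran from -0.12 (without the library labelled KO 1) to 1.05 (without the library labelled KO 2), and was -0.075 against the CCT chaperonin. With a library left out, the median of the 7 other ER lists ran from 0.25 (without WT 1) to 0.53 (without the library labelled KO 2). It was not computed for the lists together on total reads. On that scale the medians by list ran from 0.22 (glycan and lectin cycle) to 1.20 (translocon and KDEL receptors), against -0.34 and 0.62 as reported. The cause was not tested.

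Replicate numbers were not shown to pair the libraries. The deviations of same-numbered libraries correlated at 0.057 across tested genes. With the replicate block the median of the 10 was 0.71, which a block cannot move in this balanced design, and again 0 of the 10 passed. Over all genes, 12 passed the adjusted threshold without the block and 0 with it.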

Other observations

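The 928 genes with at least 300 reads were ranked by the gap between the library labelled KO 1 and the highest of the other 3. This was done after the values were seen, so it carries no test. The gap was at least 1 on the log2(RPKM + 1) scale for 22 genes, of which 6 were the chaperones named above. Of the other 16, Col6a3, a collagen VI chain, had the widest gap, at 46.9 RPKM in the library labelled KO 1 against 9.98, 6.21 and 12.1 RPKM in WT 1, WT 2 and the library labelled KO 2. Tnc (tenascin C) was at 175 RPKM against 56.6, 50.3 and 37.3 RPKM. Fbn1 (fibrillin) was at 63.0 RPKM against 15.9, 14.5 and 23.4 RPKM. Thbs1 (thrombospondin) was at 267 RPKM against 116, 76.9 and 84.6 RPKM. Vcan (versican) was at 16.5 RPKM against 2.41, 2.50 and 6.68 RPKM.

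Others were the cell-surface proteoglycan Gpc4, at 185 RPKM against 36.9, 28.0 and 55.1 RPKM, and the protease Adamts1, at 121 RPKM against 48.2, 42.4 and 43.9 RPKM. P4ha1, whose product joins that of P4hb in collagen prolyl 4-hydroxylase, was at 88.4 RPKM against 21.8, 27.3 and 34.3 RPKM. Ptgs2 (cyclooxygenase 2), an enzyme of the ER membrane, was at 281 RPKM against 73.9, 121 and 120 RPKM. Also among them were Ptx3, Lgals3bp, Glg1, Rarres2, Osmr and Pdgfra, of which Osmr and Pdgfra encode receptors of the cell surface.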
